A study of Mus musculus with 6 samples.

Results

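Cholesterol synthesis was described in the pre-limbic cortex (PLc) through 7 genes, Hmgcs1, Idi1, Fdft1, Sqle, Dhcr7, Srebf2 and Insig1, chosen by name. Of the 37620 genes listed in the table, 6 carried one of these symbols, and Hmgcs1 was not analysed here. The mice were C57Bl/6 animals, labelled as 9 weeks old. Saline mice 1, 6 and 10 received the vehicle, and ketamine mice 3, 5 and 9 received ketamine at 30 mg/kg, both by daily intraperitoneal injection for 5 days. PLc tissue was dissected 2 days after the last injection, so the values describe tissue after a washout and not during exposure, and each mouse gave its own RNA library. The question was whether sub-chronic ketamine left a difference in the expression of these genes.

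Cholesterol hardly crosses the blood-brain barrier, and the brain therefore makes its own. Oligodendrocytes need it for myelin, and astrocytes make it and pass it to neurons on particles that carry apolipoprotein E. The mevalonate arm of the pathway builds farnesyl diphosphate from acetyl-CoA, and the sterol arm turns farnesyl diphosphate into squalene, lanosterol and cholesterol. Transcription of nearly all of these enzymes is driven by SREBP2, the product of Srebf2. When sterols are plentiful, INSIG proteins hold SREBP2 and its escort protein SCAP in the endoplasmic reticulum, and when sterols are scarce SREBP2 is released, cleaved and sent to the nucleus. Transcripts of the pathway are for this reason used as a readout of the sterol state of a tissue.

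None of the 6 genes passed the test for a difference between ketamine and saline mice. The comparison used limma on log2(normalized count + 1), where a normalized count is a gene's read count divided by a size factor for its library. The fit covered 16127 genes whose normalized counts averaged 10 or more, and all 6 genes passed this filter. At an adjusted p under 0.05 (Benjamini-Hochberg over all genes, two-sided), limma called 0 of the 6, and the same share of all genes tested was 0.0%. At an unadjusted p under 0.05, limma, edgeR's quasi-likelihood test and DESeq2 each found 0 of the 6, where limma found 3.44% of all genes higher and 2.37% lower, edgeR 6.24% and DESeq2 6.54% in either direction. DESeq2, run on the reads recovered from the table, called 0.899% of all genes higher and 0.229% lower, and edgeR called 0.0% in either direction. The log2 fold changes of the 6 genes ran from -0.11 in Fdft1 to 0.13 in Dhcr7. Their median was -0.04, beside -0.01 over all genes tested, with 1 gene higher and 5 lower, and of all genes tested 47.0% were higher and 53.0% lower. The 95% intervals of limma bound the changes that these data allow, and across the 6 genes the widest bounds were a ratio of 0.734 in Srebf2 and of 1.45 in Dhcr7. In bulk tissue, fewer cells of a type and less RNA per cell cannot be told apart.

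**Figure D1:**
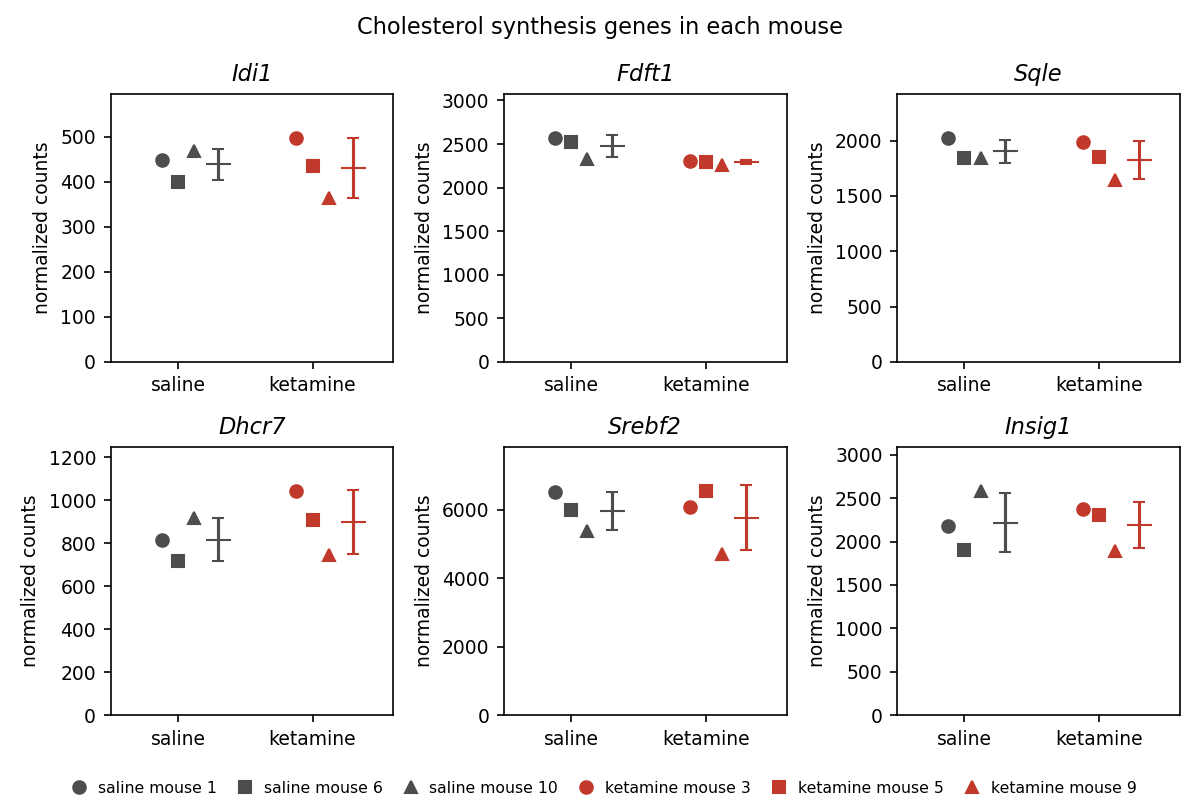
Normalized counts of 6 cholesterol synthesis genes in each mouse, with the vertical axes starting at 0 and the bars giving the mean ± SD of 3 mice. Saline and ketamine mice overlapped for every gene except Fdft1, whose ketamine mice lay between 2264 and 2309 and saline mice between 2329 and 2566.

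The libraries held between 26273436 and 32643726 recovered reads, and the 6 genes had between 401 and 6953 reads in a library. All 10 markers of cortical excitatory neurons were detected in every mouse. Their summed levels were 182779 to 238413 normalized counts in saline mice and 107432 to 180270 in ketamine mice. All 10 had a lower mean log2 value in ketamine, 2 of them without overlap. DESeq2 called 1 and limma 0 (3 at an unadjusted p under 0.05). Over all genes tested, 4.66% had all ketamine mice below all saline mice. DESeq2 called 0.229% of them lower, and limma found 2.37% lower at an unadjusted p under 0.05. Other tissue markers also set several libraries apart. Summed over 12 oligodendrocyte markers, saline mice 1, 6 and 10 had 61772, 48562 and 412991 normalized counts, whereas the sums of ketamine mice 3, 5 and 9 were 176364, 114593 and 126343. The sum of 12 striatal markers was 63681 and 32309 in ketamine mice 3 and 5 against 8420 to 10533 in the other 4 mice. All 12 were higher in ketamine, 4 of them without overlap, and DESeq2 called 4 and limma 0. Isl1 of this list was at 0 in saline mice 1 and 6. Olfactory bulb markers also separated the groups. Their sums over 10 markers were 662, 786 and 1668 for saline mice 1, 6 and 10, against 4572, 2743 and 19778 for ketamine mice 3, 5 and 9. All 10 had a higher mean in ketamine, 7 of them without overlap. DESeq2 called 5 and limma 0 (7 at an unadjusted p under 0.05), while Lhx1 of this list was at 0 in saline mice 1 and 6. Of all genes tested, 5.69% had all ketamine mice above all saline mice. DESeq2 called 0.899% of all genes higher, and limma found 3.44% higher at an unadjusted p under 0.05. Ketamine mouse 9 also differed by transcript length, since the median log2 deviation from the 6-mouse mean was 0.32 in genes with under 1.5 kb of exon and -0.43 in genes with over 8 kb. In the length span of the 6 genes it was -0.01. Their part in the results below was not tested, beyond the values given without a mouse.

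Hmgcs1 encodes the cytosolic enzyme that condenses acetyl-CoA with acetoacetyl-CoA in the mevalonate arm, and its RNA was not analysed here. Promoter sequences were available for 5 of the 7 genes, from RefSeq on GRCm38.p6, and the 250 bases before the transcript start were searched on both strands. Sqle and Fdft1 had no entry. The motifs were the sterol regulatory element, which SREBP2 binds, in a full form TCACNCCAC and a short form TCACNCCA contained in it, the CCAAT box bound by NF-Y, and the GC box GGGCGG bound by Sp1. NF-Y and Sp1 are the usual partners of SREBP2 at its promoters. Of 32851 promoters of the same length, 1.05% held the full sterol element, 3.67% the short form, 33.8% a CCAAT box and 32.7% a GC box. These 4 are shown because they are the promoters of the genes with a single listed start, with every motif match in capitals.
Hmgcs1: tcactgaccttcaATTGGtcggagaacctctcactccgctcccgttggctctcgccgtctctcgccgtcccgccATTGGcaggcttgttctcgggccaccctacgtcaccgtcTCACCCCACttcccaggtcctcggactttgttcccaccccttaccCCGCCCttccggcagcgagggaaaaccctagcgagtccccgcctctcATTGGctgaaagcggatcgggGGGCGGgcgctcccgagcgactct
Idi1: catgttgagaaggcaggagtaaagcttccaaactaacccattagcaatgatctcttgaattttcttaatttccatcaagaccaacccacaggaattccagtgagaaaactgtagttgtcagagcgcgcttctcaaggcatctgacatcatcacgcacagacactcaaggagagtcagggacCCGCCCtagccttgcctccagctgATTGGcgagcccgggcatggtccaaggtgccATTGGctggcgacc
Srebf2: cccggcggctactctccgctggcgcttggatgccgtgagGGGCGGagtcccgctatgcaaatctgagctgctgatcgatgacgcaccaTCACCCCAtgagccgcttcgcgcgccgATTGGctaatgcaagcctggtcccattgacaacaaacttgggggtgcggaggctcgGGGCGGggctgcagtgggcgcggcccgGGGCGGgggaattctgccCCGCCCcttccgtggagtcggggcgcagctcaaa
Insig1: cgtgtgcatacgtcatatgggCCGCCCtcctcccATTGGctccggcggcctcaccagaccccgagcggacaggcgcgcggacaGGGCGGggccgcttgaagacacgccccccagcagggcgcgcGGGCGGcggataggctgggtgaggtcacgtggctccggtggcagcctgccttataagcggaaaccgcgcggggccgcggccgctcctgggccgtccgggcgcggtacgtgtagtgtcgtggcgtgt
All 4 lie on the plus strand, Hmgcs1 at chr13:119690101-119690350, Idi1 at chr13:8885356-8885605, Srebf2 at chr15:82147019-82147268 and Insig1 at chr5:28071162-28071411. The full sterol element was found in Hmgcs1 only among the promoters searched, beside 3 CCAAT boxes and 2 GC boxes. Srebf2 held the short form from -162 to -155, counting the last base before the start as -1, with 1 CCAAT box and 4 GC boxes. In Insig1 there were 1 CCAAT box and 3 GC boxes, and in Idi1 there were 2 CCAAT boxes and 1 GC box, with no match to either form of the sterol element. Dhcr7 has 3 listed starts, and the window before the third held 2 CCAAT boxes and 3 GC boxes, while neither form of the sterol element occurred before any of them. A match is a description of letters and not a binding site, and the absence of one says nothing about SREBP2 at the gene.

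Idi1 encodes the isomerase that converts isopentenyl diphosphate into dimethylallyl diphosphate, the pair of units from which farnesyl diphosphate is built. The gene (ENSMUSG00000058258) is on the plus strand of mm9, chr13:8884852-8891641, with 5 merged exons of 2866 bases in GENCODE M1. The normalized counts of saline mice 1, 6 and 10 were 447, 400 and 468, against 496, 434 and 363 for ketamine mice 3, 5 and 9. The groups overlapped, with both the highest and the lowest value of the 6 in a ketamine mouse. The means were 438.2 ± 35.0 in saline and 431.1 ± 66.4 in ketamine (SD, n = 3 each), and the log2 fold change was -0.03 (SE 0.165, 95% interval -0.42 to 0.36, adjusted p = 0.999 by limma). It was 0.085 when ketamine mouse 9 was left out. This gene had the fewest reads of the 6, between 401 and 507 in a library.

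Fdft1 encodes squalene synthase, which joins farnesyl diphosphate units head to head and commits them to sterols. It was the only one of the 6 genes whose groups did not overlap. Its normalized counts came to 2566, 2529 and 2329 for saline mice 1, 6 and 10, against 2309, 2298 and 2264 for ketamine mice 3, 5 and 9. All ketamine mice thus lay below all saline mice, with saline mouse 10 and ketamine mouse 3 nearest to each other. Of all genes tested, 4.66% had all ketamine mice below all saline mice and 5.69% had all of them above, so a single gene of 6 is close to the background. The means were 2475 ± 127 and 2291 ± 23.4 (SD, n = 3 each), and the log2 fold change was -0.11 (SE 0.112, 95% interval -0.37 to 0.15, adjusted p = 0.999 by limma). The exact permutation test gave p = 0.1, the smallest that 3 mice against 3 allow. The spread of Fdft1 within the groups was small, at 0.054 on the log2 scale, and only 1.13% of the genes tested had a smaller one. limma estimates the spread of a gene partly from other genes of like expression, and the standard error is therefore larger than these 6 values alone would give. The gene (ENSMUSG00000021273, minus strand, chr14:63763990-63796630) shares 769 of its 2860 exon bases with Ctsb on the opposite strand, and the strand setting of the counting is not given in the sources used here. Ctsb, which encodes the lysosomal protease cathepsin B, likewise had groups without overlap, at 17010 ± 1100 normalized counts in saline and 14623 ± 1249 in ketamine (SD, n = 3 each). For Ctsb the log2 fold change was -0.22 (adjusted p = 0.999 by limma), and reads shared between the genes cannot be told apart.

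Sqle encodes squalene epoxidase, the first enzyme of the pathway that needs oxygen. The gene (ENSMUSG00000022351) lies on the plus strand at chr15:59146632-59162747, with no overlapping gene in GENCODE M1. The normalized counts of saline mice 1, 6 and 10 were 2021, 1842 and 1843, against 1984, 1852 and 1643 for ketamine mice 3, 5 and 9. Ketamine mice 3 and 5 fell inside the range of the saline mice, and ketamine mouse 9 below it. The means were 1902 ± 103 and 1827 ± 172 (SD, n = 3 each), and the log2 fold change was -0.06 (SE 0.127, 95% interval -0.36 to 0.24, adjusted p = 0.999 by limma). With ketamine mouse 9 left out it was 0.013, so this library decided its sign.

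Dhcr7 encodes the reductase that turns 7-dehydrocholesterol into cholesterol, the last step of one of the branches of the sterol arm. It was the only one of the 6 genes with a mean that was higher in ketamine. The normalized counts of saline mice 1, 6 and 10 were 817, 717 and 918, against 1042, 910 and 746 for ketamine mice 3, 5 and 9. Ketamine mouse 3 had the highest value and saline mouse 6 the lowest, while the other 4 mice were interleaved. The means were 817.4 ± 100 and 899 ± 148 (SD, n = 3 each), and the log2 fold change was 0.13 (SE 0.171, 95% interval -0.27 to 0.53, adjusted p = 0.999 by limma). It was 0.26 without ketamine mouse 9 (adjusted p = 0.578 by limma) and 0.019 without ketamine mouse 3 (adjusted p = 0.999 by limma). The gene (ENSMUSG00000058454) lies on the plus strand at chr7:151009050-151034315, and its highest and lowest mouse differed by a ratio of 1.45, the widest of the 6 genes.

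Srebf2 encodes SREBP2, the transcription factor over the whole pathway, and is itself a target of SREBP2. The gene (ENSMUSG00000022463) lies on the plus strand at chr15:81977696-82035806, and Mir33, a microRNA gene, lies inside it without touching its exons. The normalized counts of saline mice 1, 6 and 10 were 6526, 5990 and 5397, against 6091, 6541 and 4706 for ketamine mice 3, 5 and 9. Ketamine mice 5 and 9 had the highest and the lowest value of all mice. The means were 5971 ± 565 and 5780 ± 956 (SD, n = 3 each), and the log2 fold change was -0.06 (SE 0.165, 95% interval -0.45 to 0.33, adjusted p = 0.999 by limma). It was 0.084 when ketamine mouse 9 was left out, and 0.0095 when saline mouse 1 was left out, so its sign turned with either mouse.

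Insig1 encodes the sterol-dependent retention protein of the endoplasmic reticulum, and its transcript is a sensitive target of SREBP2. The gene (ENSMUSG00000045294) lies on the plus strand at chr5:28397952-28405201, with no overlapping gene. The normalized counts of saline mice 1, 6 and 10 were 2180, 1899 and 2576, against 2378, 2303 and 1892 for ketamine mice 3, 5 and 9. Ketamine mouse 9 lay just below the saline range, and ketamine mice 3 and 5 lay inside it. The means were 2219 ± 340 and 2191 ± 262 (SD, n = 3 each), and the log2 fold change was -0.01 (SE 0.162, 95% interval -0.40 to 0.37, adjusted p = 0.999 by limma). With ketamine mouse 9 left out it was 0.088, and the sign of a value this close to 0 also turned with the scaling and with the mice included. The exact permutation p was 0.9 for Idi1, Insig1 and Srebf2, 0.6 for Sqle and 0.5 for Dhcr7.

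**Figure D2:**
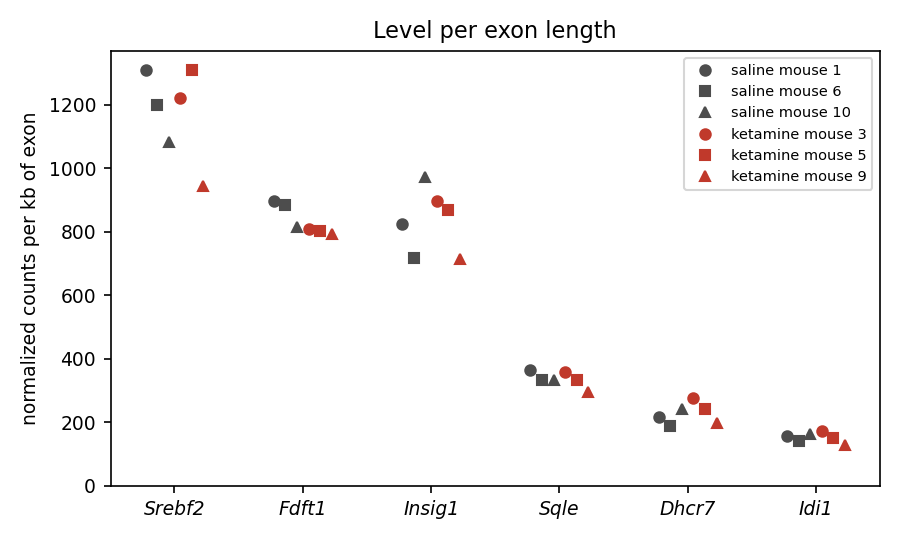
Normalized counts per kb of merged exon for the 6 genes, with 1 point for each mouse and the genes in order of their mean. Srebf2 had the highest level and Idi1 the lowest, and the ranges of Fdft1 and Insig1 overlapped. Fdft1 shares exon bases with Ctsb, so its place is uncertain.

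Levels were compared between genes as normalized counts per kb of exon, since long transcripts give more reads. Srebf2 had the highest level, with 943.3 to 1311 normalized counts per kb over the 6 mice. Fdft1 followed with 791.7 to 897, and Insig1 with 714.7 to 973. These 2 neighbours did not differ beyond their spread, since Fdft1 was above Insig1 in 3 of the 6 mice. The level of Fdft1 was divided by all 2860 exon bases, of which 769 are shared with Ctsb. How reads over the shared bases were counted is not known, so the place of Fdft1 in this order is uncertain. Sqle had 296 to 364 normalized counts per kb, Dhcr7 had 189.5 to 275 and Idi1 had 127 to 173. Each of these was below the gene before it in all 6 mice. The regulators and squalene synthase were thus more abundant per length than the isomerase of the mevalonate arm and the last reductase of the sterol arm, in the means of saline and of ketamine mice.

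The 6 genes varied little among mice. The highest mouse exceeded the lowest by a ratio of 1.13 in Fdft1, 1.23 in Sqle, 1.36 in Insig1, 1.37 in Idi1, 1.39 in Srebf2 and 1.45 in Dhcr7. The median of these ratios was 1.36, beside 1.64 over all genes tested, many of which have fewer reads. The sum of the oligodendrocyte markers differed between mice by a ratio of 8.50 and that of the striatal markers by 7.56, while the sum of the 6 genes differed by 1.25. This small ratio was not particular to the 6 genes. It was 1.22 for the other genes of the mevalonate arm, 1.18 for those of the sterol arm and 1.09 for other regulators of SREBP processing. In the remaining pathway lists described below it ran from 1.37 to 2.05. Saline mouse 10, with the highest oligodendrocyte sum, had the highest Insig1, Idi1 and Dhcr7 of the 3 saline mice, the lowest Srebf2 and Fdft1 of them, and the middle value of Sqle. The sum of 10 astrocyte markers ranged from 111071 to 149296 normalized counts, lowest in ketamine mouse 9.
The small deviations were not shared evenly by the 6 genes. The mean log2 deviation of the 6 genes from their 6-mouse means came to 0.06, -0.08 and 0.05 for saline mice 1, 6 and 10, and for ketamine mice 3, 5 and 9 to 0.12, 0.05 and -0.20. Ketamine mouse 9 had the lowest value of 5 of the 6 genes, and saline mouse 6 the lowest of the sixth, Dhcr7. Idi1 and Insig1 followed each other most closely over the 6 mice, with a root mean square difference of 0.08 between their centred log2 values, and Dhcr7 and Fdft1 least, with 0.23. After a curve of the deviations on exon length was subtracted in each library, an alternative chosen after seeing the data, ketamine mouse 9 still had the lowest mean deviation, at -0.21. The log2 fold changes then ran from -0.11 in Fdft1 to 0.13 in Dhcr7, and none was called (smallest adjusted p = 0.921 by limma). With ketamine mice 3 and 5 left out, which had raised striatal markers, the 6 genes had a median log2 fold change of -0.21, and limma called 0 of them. That comparison sets ketamine mouse 9 alone against the saline mice and assumes that it varies as they do.

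**Figure D3:**
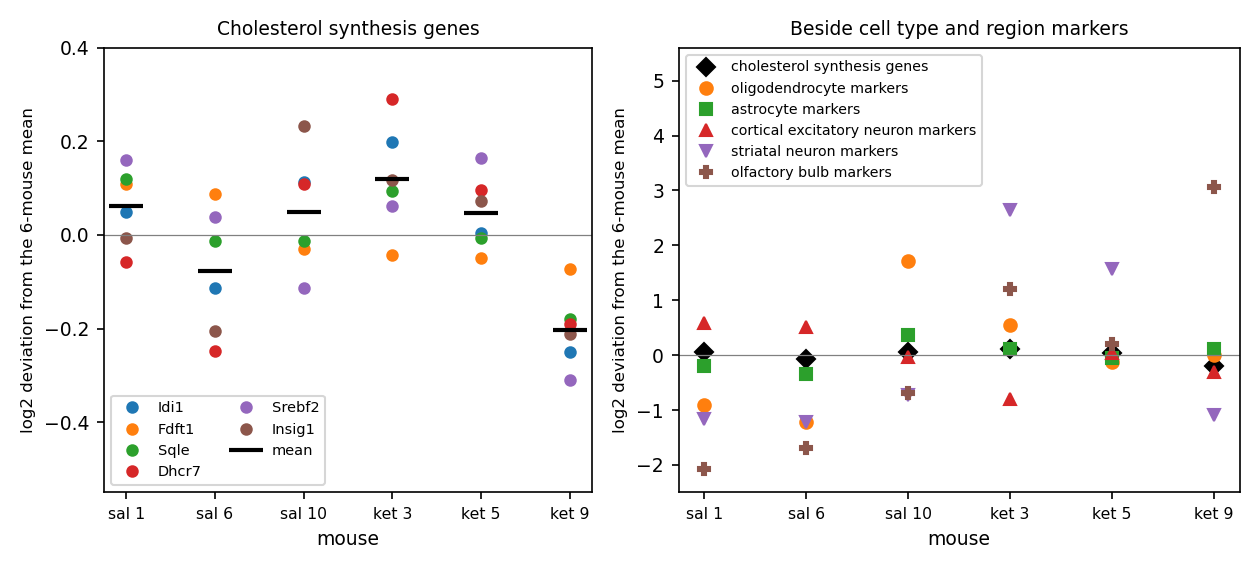
Log2 deviation from the 6-mouse mean, by mouse (sal, saline; ket, ketamine). The left panel shows the 6 cholesterol synthesis genes with their mean as a bar, between -0.20 and 0.12, and the right panel shows that mean beside the means of 5 marker lists on a wider axis, where olfactory bulb markers reached 3.06 in ketamine mouse 9.

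Of the 7 other genes of the mevalonate arm, limma called 0, with 2 higher and 5 lower and a median log2 fold change of -0.02. Mvd, the decarboxylase that makes isopentenyl diphosphate, had the smallest p of the list. Its normalized counts of 533, 489 and 493 for saline mice did not overlap those of 416, 434 and 415 for ketamine mice. The log2 fold change was -0.26 (SE 0.127, 95% interval -0.56 to 0.04, unadjusted p = 0.0789, adjusted p = 0.930 by limma, 0.943 by DESeq2). Acat2 and Ggps1 followed, with log2 fold changes of 0.07 and -0.08.
Of the 10 other genes of the sterol arm, limma called 0, with 3 higher and 7 lower and a median of -0.05. Among those with the smallest p were Lbr, a sterol reductase of the nuclear envelope, and Nsdhl, which takes part in the removal of methyl groups from lanosterol. Their log2 fold changes were 0.18 and 0.11 (unadjusted p = 0.479 and 0.487 by limma). Over the 23 synthesis genes tested, the 6 genes included, 6 had a higher and 17 a lower mean log2 value in ketamine, and the median change was -0.05. Fdft1 and Mvd were the only 2 of the 23 whose groups did not overlap in either direction, and both were lower in ketamine. Of all genes tested, 4.66% had all ketamine mice below all saline mice and 5.69% had all of them above.

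**Figure D4:**
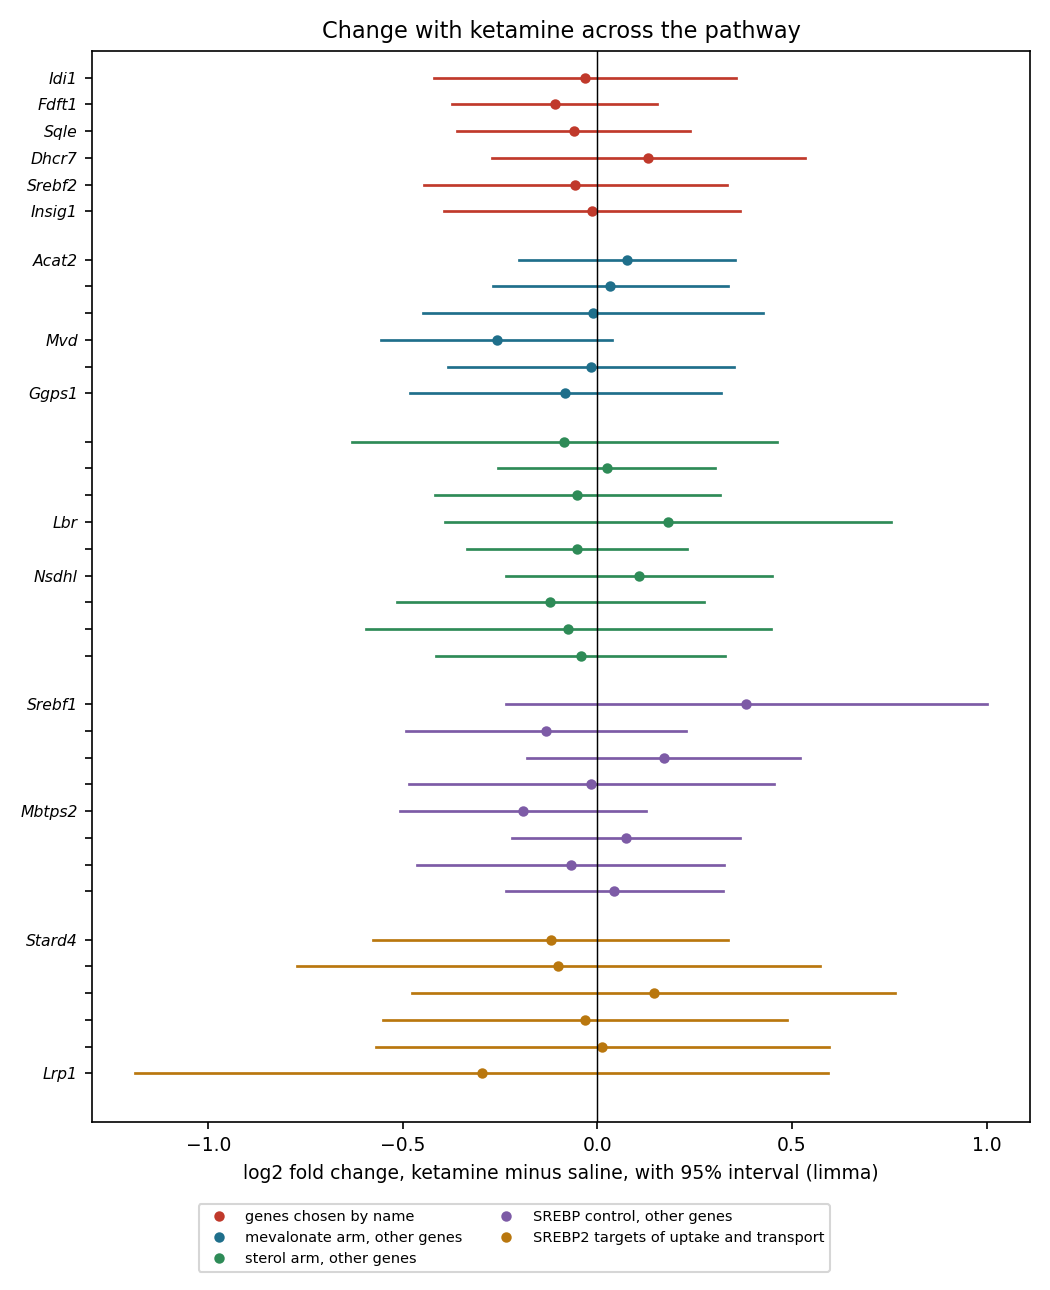
Log2 fold change of ketamine against saline with the 95% interval of limma, for the 6 genes chosen by name and other genes of 4 pathway lists, with labels on those named in the text. Every interval shown includes 0, and that of Lrp1, from -1.19 to 0.59, is the widest of them.

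The regulators of SREBP processing were described by 9 other genes, of which 5 were higher and 4 lower, with a median log2 fold change of 0.04 and 0 called by limma. Srebf1, which encodes SREBP1 and leans towards fatty acid synthesis, had normalized counts of 1017, 1049 and 1918 for saline mice 1, 6 and 10, against 1859, 1402 and 1743 for ketamine mice 3, 5 and 9. Saline mouse 10 had the highest value, and the log2 fold change was 0.38 (SE 0.263, adjusted p = 0.999 by limma). Mbtps2, a protease that releases SREBP, had a log2 fold change of -0.19 (unadjusted p = 0.195 by limma).
Of 8 genes of uptake and transport, 4 were higher and 4 lower, with a median of -0.01 and 0 called by limma. Lrp1, a large lipoprotein receptor, had a log2 fold change of -0.30 and Stard4, a sterol transport protein, one of -0.12 (unadjusted p = 0.457 and 0.555 by limma). Normalized counts of Lrp1 were 12223 to 14230 across saline mice, against 13321, 17120 and 5726 for ketamine mice 3, 5 and 9. Only ketamine mouse 9 thus lay below the saline range of Lrp1. Lrp1 has 17.7 kb of exon, and the part of transcript length in its change was not tested. The ratio of the highest to the lowest mouse was 2.99 in Lrp1 and 1.48 in Stard4, both above the 1.45 of Dhcr7.

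The genes whose pattern over the 6 mice was most like the mean of the 6 genes were sought among 12278 genes of no list whose normalized counts averaged 100 or more. The measure was the root mean square difference of centred log2 values. The 5 nearest were Eif4b, a translation initiation factor, at 0.0279, Epb4.1l2, a protein of the membrane skeleton, at 0.0290, Zfp655, a zinc finger gene, at 0.0295, Aco1, the cytosolic aconitase that binds iron-responsive RNA, at 0.0297, and Apbb1ip, an adaptor of Rap1 signalling, at 0.0327. Each had its lowest value in ketamine mouse 9. Of the 6 genes, Sqle lay nearest to their mean at 0.050 and Idi1 next at 0.052, with 0.318% and 0.326% of the 12278 genes closer. Each of the 6 genes is part of that mean and the others are not, so their closeness is partly fixed by construction. Since the mean is nearly flat, genes that vary little stand near it whatever they do.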

How the data were processed

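RNA from the PLc of 3 saline and 3 ketamine mice was sequenced. Per the submitters' notes, the authors used TopHat2 2.0.11 on mm9 and HTSeq, and they deposited a signal per gene, namely counts divided by a DESeq2 size factor and rounded to 2 decimals. The annotation, strand setting and filters are not given in the sources used here. Columns were matched to samples by mouse number, and numbers differ between groups. Dividing each column by its smallest step gave whole reads for 100.0% of values (within 0.0051 normalized counts plus 1e-06 of the value). Of the list genes, Msmo1 and Drd1 were matched by an older symbol, and Hmgcs1 and Acaca were not analysed here. Coordinates and exon lengths are those of GENCODE M1 on mm9.

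Log2(normalized count + 1) was compared with limma 3.58.1 (R 4.3.3) with a variance trend. The alternatives were edgeR 4.0.16 on recovered reads, DESeq2 1.42.0 on the same reads, other pseudocounts, filters and scalings, each mouse left out, and the length correction added after seeing the data. Tests were checked on simulated reads. The p-values of the fits weigh the difference between groups against the spread between mice, which limma estimates partly from other genes.

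The genes named are the 7 chosen by name, the 3 of each pathway list with the smallest p, and the 5 most alike in pattern. Some genes that this rule takes are not reported here, although the list counts include them. Ctsb, Isl1, Lhx1 and the others beyond this were named after their values were seen. The genes and lists were chosen with earlier results of these data known.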

Additional observations from a re-analysis of the deposited data

How the results depend on the processing

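The 6 cholesterol synthesis genes were refitted under 18 alternatives, and in each of them 0 were called, as were 0 genes of the 7 other pathway lists. DESeq2 called 182 genes in all, where limma called 0, and with a mouse left out limma called between 0 and 1 genes, namely Trh without ketamine mouse 5 and Cdhr1 without ketamine mouse 9. Leaving out each mouse in turn moved the median log2 fold change of the 6 genes between -0.11 and 0.08, and without ketamine mice 3 and 5 it was -0.21. Over the mice left out in turn, the log2 fold change ranged from -0.12 to 0.013 in Sqle, from -0.14 to 0.085 in Idi1, from -0.12 to 0.099 in Insig1 and from -0.15 to 0.084 in Srebf2. The positive values of Sqle, Idi1, Insig1 and Srebf2 included the one without ketamine mouse 9, and Srebf2 was also above 0 without saline mouse 1 and Idi1 and Insig1 without saline mouse 10. Fdft1 kept its sign in all 18, between -0.15 and -0.081. Insig1 turned to 0.0026 with TMM scaling and to 0.015 with upper-quartile scaling. Without ketamine mice 3 and 5, Dhcr7 was at -0.12, and the medians were 0.074 for the mevalonate arm, 0.099 for SREBP control and -0.45 for uptake and transport. These values set ketamine mouse 9 alone against the saline mice. Npc1, Lrp8, Vldlr and Lrp1 of the uptake and transport list have 10.1 to 17.7 kb of exon. The median deviation of ketamine mouse 9 in genes with over 8 kb was -0.43. With all mice kept, the uptake and transport median was -0.0099 as reported and 0.063 with the length curve subtracted. The curve was not subtracted in the comparison without ketamine mice 3 and 5, so its effect on the -0.45 was not tested. With single mice left out the list medians ran from -0.0055 to 0.047 for the mevalonate arm, from 0.016 to 0.094 for SREBP control and, for the sterol arm, from -0.071 to 0.045. The causes were not tested. No paired analysis was possible because the groups share no mouse number. With 3 mice a group, changes smaller than the intervals given could not be detected. The intervals are not adjusted for the number of genes tested, so larger changes could also go uncalled. Whether more reads would narrow the intervals was not tested.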

Other observations

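Genes that move cholesterol out of cells, store it or break it down did not pass the test either. Of 8 genes of sterol efflux and its receptor LXR, 3 were higher and 5 lower (median log2 fold change -0.03), and limma called 0. Apoe, which encodes apolipoprotein E, had normalized counts of 30512 to 38072 across saline mice, against 36587, 31902 and 52956 for ketamine mice 3, 5 and 9. Its log2 fold change was 0.25 (adjusted p = 0.999 by limma). Abca1, which loads cholesterol onto apolipoproteins, and Abcg1, another exporter, had log2 fold changes of 0.30 and -0.10. Of 7 genes of turnover and esters, 4 were higher and 3 lower (median 0.08), and limma called 0. Nceh1, a cholesterol ester hydrolase, Lipa, the lysosomal one, and Ch25h, a hydroxylase with normalized counts of 5.75 to 8.79 across saline mice and of 6.85, 6.59 and 37.2 for ketamine mice 3, 5 and 9, had log2 fold changes of -0.25, 0.18 and 0.66. Ketamine mice 3 and 5 thus lay inside the saline range of Ch25h, and ketamine mouse 9 alone above it.

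Of 9 genes of fatty acid synthesis, 4 were higher and 5 lower (median -0.03), and limma called 0. Me1, which supplies NADPH, Fads1, a desaturase, and Acss2, which makes acetyl-CoA from acetate, had log2 fold changes of -0.18, 0.14 and -0.16. Scd2, a desaturase named after its values were seen, had normalized counts of 33492, 30230 and 55802 for saline mice 1, 6 and 10, against 51987, 40232 and 38051 for ketamine mice 3, 5 and 9. It was highest in saline mouse 10, which also had the highest oligodendrocyte sum, whereas the sum of the 6 cholesterol synthesis genes in that mouse, 13531, lay between those of saline mice 1 and 6, at 14558 and 13377. Markers of oligodendrocyte precursors, microglia, endothelium and choroid plexus had summed levels that differed between mice by ratios of 1.95, 1.19, 1.20 and 25.3.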
